A study of Homo sapiens with 12 samples.

Results

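The genes examined were 10 regulators of apoptosis, picked by symbol: the antiapoptotic genes BCL2, BCL2L1 and MCL1, the effectors BAX and BAK1, the BH3-only genes BID, BBC3, PMAIP1 and BCL2L11, and the death receptor gene TNFRSF10B. All 10 were among the 60662 genes of the table, and all 10 passed the filter on low values that left 16815 genes for testing, which asked that 4 or more of the 12 samples reach 0.5 TPM, the share of all transcripts corrected for transcript length. BCL2 passed it only through VEH and MET, since 0 of the 4 CJ28 samples reached 0.5 TPM.

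The samples were NCI-H295R cells, an established human adrenocortical carcinoma line that makes steroid hormones. Confluent cultures were held without serum for 12 h and then treated for 24 h. The VEH group received 0.1% DMSO, the CJ28 group 30 µM CJ28, a benzimidazolylurea derivative that lowers cortisol production, and the MET group 30 µM metyrapone, an inhibitor of the last enzyme of cortisol synthesis. Each group held 4 biological replicates of this 1 line, and total RNA was sequenced from stranded libraries after removal of ribosomal RNA.

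The labelled cell type was checked by its markers. Of 7 adrenocortical markers, 5 had a mean of at least 1 TPM in VEH, while HSD3B2 stood at 0.863 TPM and CYP11B1 near 0. The summed level of the 7 was 269 to 280 TPM in VEH, 108 to 116 TPM in CJ28 and 269 to 283 TPM in MET. Of 10 markers of chromaffin cells, leukocytes, endothelial cells and fibroblasts, 0 reached 1 TPM in any sample, and TH and CD3E were listed at 0 in all 12. The nuclear protein-coding genes took 24.3 to 24.8% of all TPM in VEH, 24.1 to 24.6% in MET and 21.3 to 21.4% in CJ28. TPM gives each gene as a share of a fixed total, so a smaller coding share lowers the TPM of the coding genes as a group, and the median of all tested genes was -0.13 on the log2 scale in CJ28 against VEH. After scaling each sample by the median of its gene ratios that median was 0.01, and with TPM recomputed over nuclear protein-coding genes alone, of which 12506 were tested, it was 0.09. Where these 2 scalings change the call of one of the 10 genes, their values are given beside it.

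Apoptosis through the mitochondria is set by the balance within the BCL2 family. The antiapoptotic proteins BCL2, BCL-XL (the product of BCL2L1) and MCL1 bind and restrain BAX and BAK, which otherwise form pores in the outer mitochondrial membrane and release cytochrome c. BH3-only proteins such as PUMA (BBC3), NOXA (PMAIP1), BIM (BCL2L11) and BID occupy the groove of the antiapoptotic proteins or act on BAX and BAK directly, and they are switched on by transcription or, as with BID, by cleavage. TNFRSF10B encodes DR5, a receptor for TRAIL that activates caspase-8 at the cell surface and whose signal reaches mitochondria through cleaved BID.

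In cells given the vehicle the 10 transcripts spanned a wide range of levels, and TPM, which is divided by transcript length, allows them to be set side by side. In VEH the order of mean TPM was MCL1 (41.3 ± 0.735, SD, n = 4), BAX (21.3 ± 1.36), BCL2L1 (9.32 ± 0.504), BAK1 (8.21 ± 0.267), BID (7.25 ± 0.632), TNFRSF10B (2.98 ± 0.234), BCL2L11 (2.88 ± 0.340), BBC3 (0.900 ± 0.0906), BCL2 (0.613 ± 0.0818) and PMAIP1 (0.513 ± 0.0888). BAK1 and BID, TNFRSF10B and BCL2L11, and BCL2 and PMAIP1 overlapped over the 4 samples, and every other pair of neighbours was separated. MCL1 was thus the leading antiapoptotic transcript of this line, and BCL2 itself was close to the filter.

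**Figure D1:**
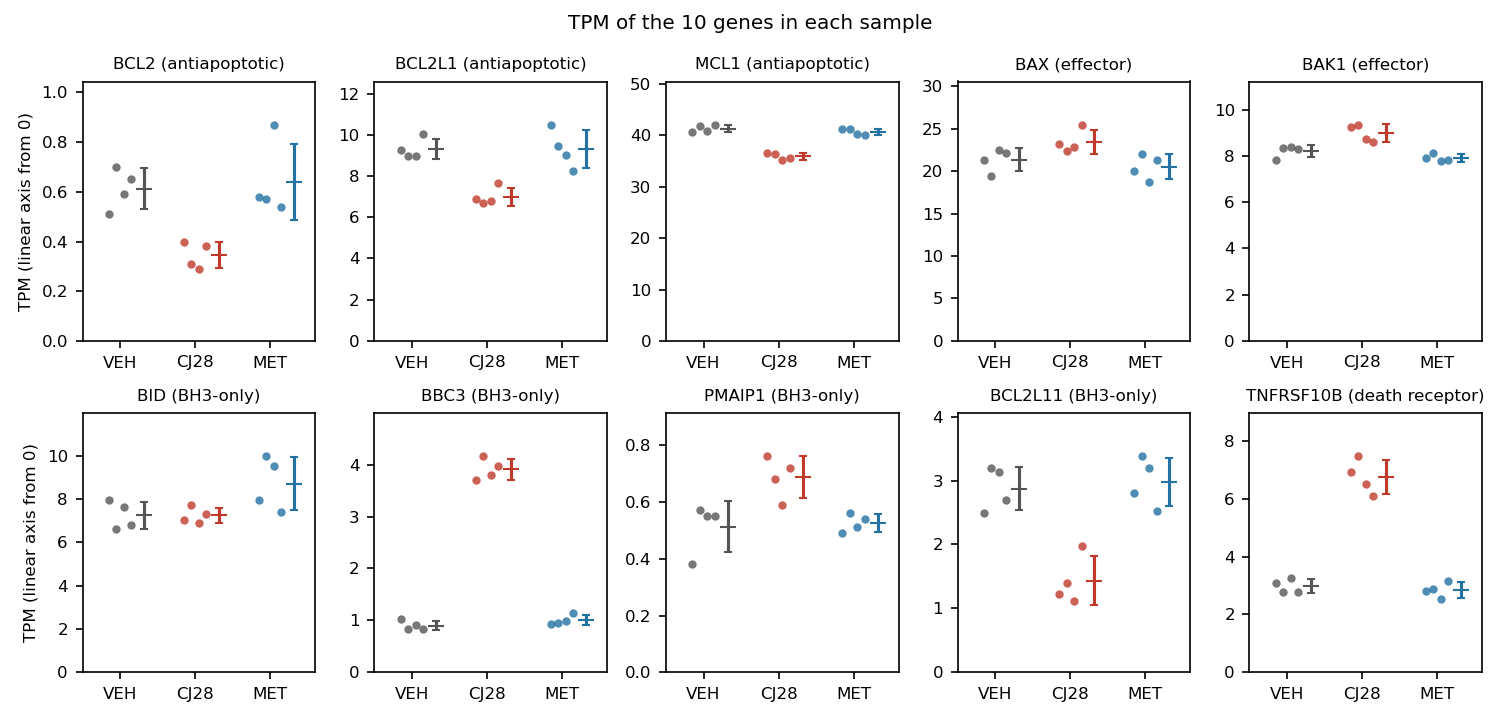
TPM of the 10 genes in each sample of VEH, CJ28 and MET (points; 4 per group) with the group mean and SD (cross and bar), 1 panel per gene with its own axis in TPM. The 4 CJ28 points of BBC3 lie between 3.70 and 4.16 TPM and those of TNFRSF10B between 6.08 and 7.46 TPM, above every VEH and MET point, while those of BCL2L11 lie between 1.12 and 1.98 TPM, below every VEH and MET point.

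The comparison of CJ28 with VEH addresses what 24 h of the compound did to these transcripts. BBC3 and TNFRSF10B were the genes that rose most, to 4.34 and 2.26 times the VEH mean, and BAK1 rose slightly. BCL2L11 fell to 0.498 and BCL2 to 0.563 of the VEH mean, BCL2L1 fell to 0.752, and MCL1 fell by less, to 0.869. By limma on log2(TPM + 0.1), 7 of the 10 genes passed an adjusted p of 0.05, 3 higher and 4 lower, where 57.0% of all tested genes passed it (19.9% higher and 37.1% lower). The 4 lower include BCL2, which had passed the filter on low values only through VEH and MET. Under either scaling 8 of the 10 genes passed, 5 higher and 3 lower, where 55.6% of all genes passed with median ratios (29.3% higher and 26.3% lower) and 65.6% over nuclear protein-coding genes (39.3% higher and 26.3% lower). The CJ28 and VEH samples did not overlap in 8 of the 10 genes, 4 higher and 4 lower, where 50.3% of all tested genes did not overlap (17.7% higher and 32.7% lower). With a majority of all genes called, the count itself does not set these 10 apart, and their directions and sizes follow one by one. In bulk RNA, fewer cells of a kind and less RNA per cell cannot be told apart.

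BBC3 (ENSG00000105327.17, GRCh38 chr19:47220822-47232766, minus strand) encodes PUMA, a BH3-only protein that binds all the main antiapoptotic members. Its levels were 1.02, 0.83, 0.92 and 0.83 TPM in VEH and 3.70, 4.16, 3.80 and 3.97 TPM in CJ28. All 4 CJ28 samples lay far above all 4 VEH samples. This was a log2 fold change of 2.01 (SE 0.094, 95% interval 1.80 to 2.21; limma, adjusted p = 2.61e-09), and 58 of the 16815 tested genes had a larger one.

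PMAIP1 (ENSG00000141682.11, chr18:59899948-59904306, plus strand) encodes NOXA, which binds MCL1 with preference. Its levels were 0.38, 0.57, 0.55 and 0.55 TPM in VEH and 0.76, 0.68, 0.59 and 0.72 TPM in CJ28, so that the groups did not overlap although the lowest CJ28 sample stood just above the highest VEH sample. The log2 fold change of 0.37 (95% interval 0.03 to 0.71) did not pass (limma, adjusted p = 0.0596), while the exact two-sided permutation test of the means gave 0.0286, the smallest p that 4 against 4 samples allow. It passed after either scaling, at 0.50 (adjusted p = 0.0131) and 0.55 (adjusted p = 0.00428). The value rests in part on the low first VEH sample, without which it was 0.26 (adjusted p = 0.164).

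BCL2L11 (ENSG00000153094.23, chr2:111119378-111168445, plus strand) encodes BIM, a BH3-only protein with several spliced forms and a known target of FOXO factors. Its levels were 2.49, 3.19, 3.13 and 2.69 TPM in VEH and 1.23, 1.40, 1.12 and 1.98 TPM in CJ28. The fourth CJ28 sample was the highest of its group and still lay below every VEH sample. On the log2 scale the difference was -0.98 (SE 0.16, 95% interval -1.32 to -0.64; limma, adjusted p = 1.69e-04), the deepest fall of the 10, and 1218 tested genes had a lower value. The long noncoding gene MIR4435-2HG overlaps BCL2L11 on the opposite strand at a mean of 31.4 TPM in VEH and 28.1 TPM in CJ28, and although the libraries were stranded, the strand setting of the counting is not stated, and the part of its reads in the BCL2L11 value was not tested.

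BID (ENSG00000015475.18, chr22:17734138-17774770, minus strand), the link between death receptors and mitochondria, gave 7.94, 6.63, 7.62 and 6.80 TPM in VEH and 7.05, 7.70, 6.89 and 7.31 TPM in CJ28. The groups lay on top of each other, with a log2 fold change of 0.00 (95% interval -0.20 to 0.21; limma, adjusted p = 0.994). The BH3-only genes therefore did not move as a class: BBC3 rose, BCL2L11 fell, PMAIP1 depended on the scaling and BID did not pass under any scaling.

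TNFRSF10B (ENSG00000120889.13, chr8:23020133-23069031, minus strand) was measured at 3.08, 2.78, 3.26 and 2.79 TPM in VEH and at 6.92, 7.46, 6.50 and 6.08 TPM in CJ28. Each CJ28 sample exceeded each VEH sample by a wide margin. It rose by 1.15 on the log2 scale (SE 0.086, 95% interval 0.96 to 1.34; limma, adjusted p = 1.87e-07), and 313 tested genes had a larger value. RHOBTB2, which overlaps it on the opposite strand, had means of 2.06 TPM in VEH and 1.99 TPM in CJ28, and the part of its reads in the TNFRSF10B value was not tested.

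Among the antiapoptotic genes, MCL1 (ENSG00000143384.13, chr1:150574551-150579738, minus strand), a short-lived protein whose transcript is the most abundant of the 10, had 40.57, 41.82, 40.84 and 42.08 TPM in VEH and 36.50, 36.35, 35.19 and 35.58 TPM in CJ28. The groups were tight and separate, and the log2 fold change was -0.20 (SE 0.028, 95% interval -0.26 to -0.14; limma, adjusted p = 4.66e-05). This fall was close to the median of all genes, and the call was lost after median-of-ratios scaling, at -0.05 (adjusted p = 0.148), and over nuclear protein-coding genes, where the value was 0.0026 (adjusted p = 0.942). MCL1 therefore fell in TPM, and no fall relative to the other coding genes was detected.

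BCL2L1 (ENSG00000171552.13, chr20:31664452-31723989, minus strand), which also yields the short form BCL-XS with the opposite action, had 9.25, 8.98, 8.99 and 10.05 TPM in VEH and 6.90, 6.67, 6.80 and 7.64 TPM in CJ28. Every CJ28 sample was below every VEH sample. The difference in log2 units was -0.41 (SE 0.072, 95% interval -0.56 to -0.25; limma, adjusted p = 3.88e-04), and it passed after either scaling at -0.26 and -0.20. ABALON, which overlaps BCL2L1 on the opposite strand, had means of 1.03 TPM in VEH and 0.585 TPM in CJ28, moving with BCL2L1, and its part in the BCL2L1 value was not tested.

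BCL2 (ENSG00000171791.13, chr18:63123346-63320128, minus strand), the founding member of the family, had 0.51, 0.70, 0.59 and 0.65 TPM in VEH and 0.40, 0.31, 0.29 and 0.38 TPM in CJ28. The groups were separate, at levels where the table's 2 decimals are coarse. BCL2 had passed the filter only through VEH and MET, where it was higher, so its fall is read with that limit. In log2 units BCL2 differed by -0.68 (SE 0.18, 95% interval -1.08 to -0.28; limma, adjusted p = 0.00707), and -0.56 and -0.51 after the scalings, which both kept the call. At this low level the size depended on the pseudocount, with -0.26 for a pseudocount of 1 and -0.81 for 0.01, both called.

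Of the effectors, BAX (ENSG00000087088.20, chr19:48954815-48961798, plus strand) had 21.26, 19.47, 22.52 and 22.14 TPM in VEH and 23.24, 22.35, 22.79 and 25.47 TPM in CJ28. The second CJ28 sample lay within the VEH range. A log2 fold change of 0.14 (95% interval 0.00 to 0.27) did not pass (limma, adjusted p = 0.0839), but it passed after scaling at 0.29 (adjusted p = 0.00239) and 0.34 (adjusted p = 1.70e-04).

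BAK1 (ENSG00000030110.13, chr6:33572547-33580293, minus strand), the other pore former, had 7.81, 8.34, 8.38 and 8.30 TPM in VEH and 9.27, 9.35, 8.72 and 8.60 TPM in CJ28. All CJ28 samples were higher, by a small margin. BAK1 rose by 0.13 on the log2 scale (SE 0.044, 95% interval 0.03 to 0.22; limma, adjusted p = 0.0245), and 0.28 and 0.33 after the scalings. In the unscaled fit the call was lost without the first CJ28 sample (adjusted p = 0.0690), the second CJ28 sample (adjusted p = 0.0752) or the first VEH sample (adjusted p = 0.0702).

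**Figure D2:**
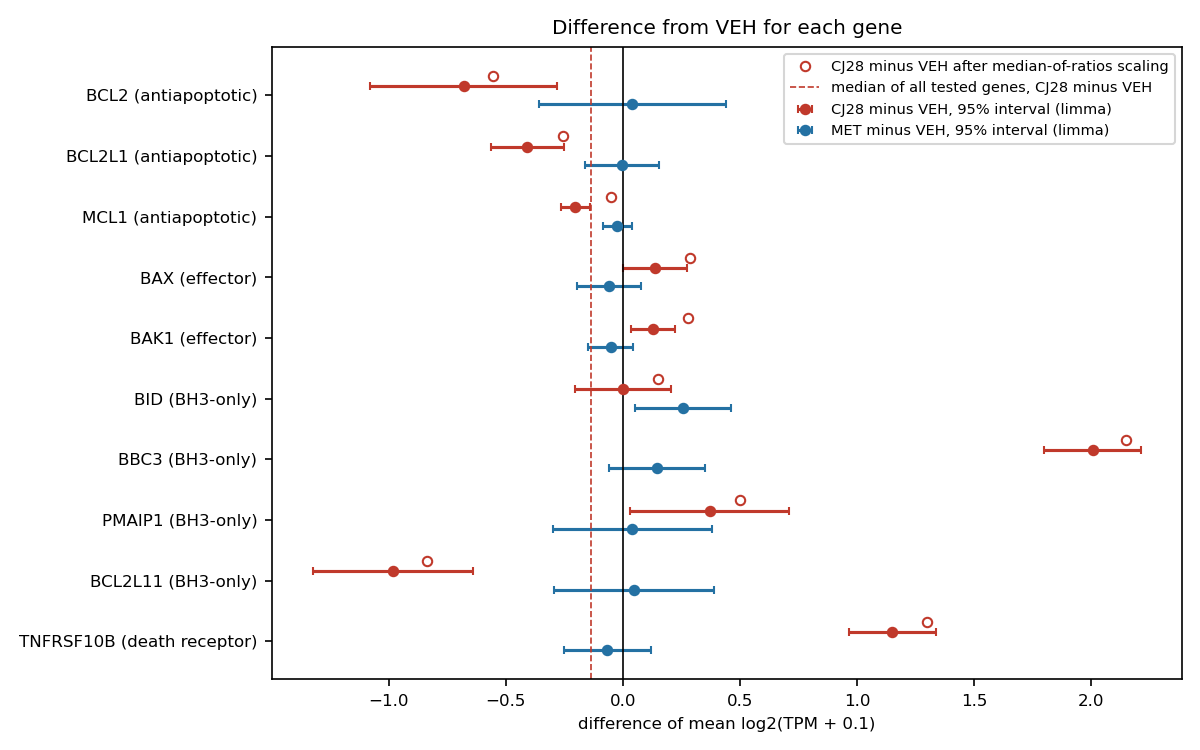
Difference of mean log2(TPM + 0.1) from VEH for each of the 10 genes, for CJ28 (red, filled) and MET (blue), with 95% intervals from limma, 4 samples per group; open circles give CJ28 after median-of-ratios scaling and the dashed line the median of all tested genes, -0.13. BBC3 at 2.01 and TNFRSF10B at 1.15 lie far to the right and BCL2L11 at -0.98 to the left, while every MET interval but that of BID spans 0.

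Within-sample TPM ratios of a promoting to a restraining gene are not moved by what other transcripts take of the total. The log2 ratios given here add 0.1 TPM to each gene, so this holds only roughly for the low genes BCL2 and PMAIP1. The log2 ratio of BAX to BCL2 was 4.92 ± 0.23 (SD, n = 4) in VEH, 5.73 ± 0.14 in CJ28 and 4.82 ± 0.37 in MET. That of BAK1 to MCL1 was -2.32 ± 0.038, -1.99 ± 0.039 and -2.35 ± 0.015 in the same order. In both pairs all 4 CJ28 samples lay above all VEH and MET samples, a difference from VEH of 0.82 and 0.33. The ratio of PMAIP1 to MCL1, a protein pair that binds with preference, was -6.09 ± 0.21 in VEH, -5.52 ± 0.12 in CJ28 and -6.03 ± 0.076 in MET, again with no overlap. The ratio of BCL2L11 to BCL2L1 went the other way, from -1.67 ± 0.22 in VEH to -2.24 ± 0.27 in CJ28, with MET at -1.62 ± 0.19. MET overlapped VEH in all 4 ratios.

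**Figure D3:**
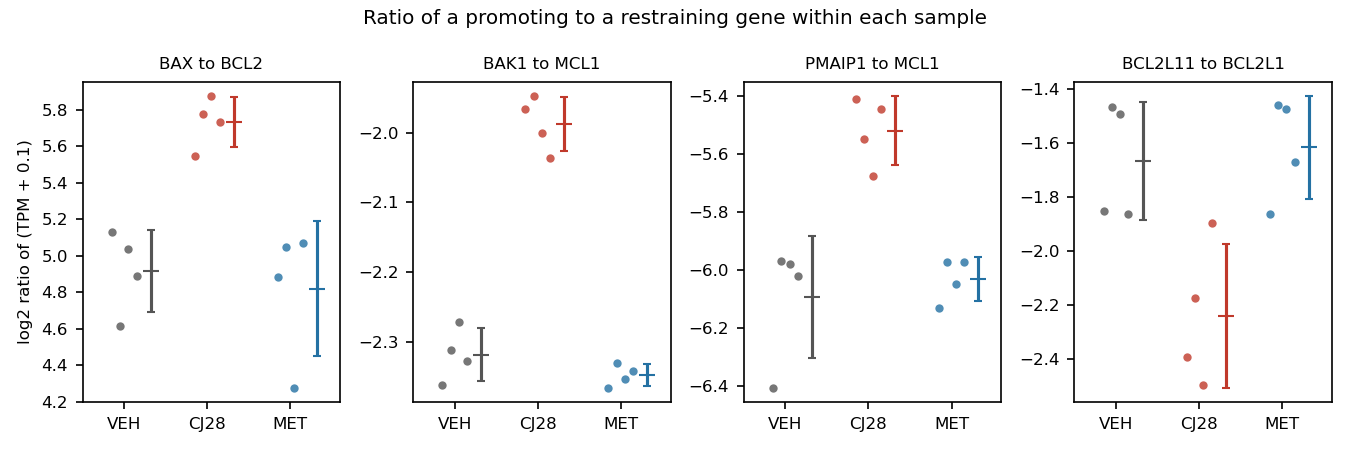
Within-sample log2 ratios of 4 gene pairs in VEH, CJ28 and MET, computed from TPM + 0.1, with a point for each of the 4 samples and a cross and bar for the group mean and SD; the vertical axes are log2 units and do not start at 0. CJ28 lies above VEH and MET for BAX to BCL2, BAK1 to MCL1 and PMAIP1 to MCL1 and below them for BCL2L11 to BCL2L1.

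Summed over roles, the 3 antiapoptotic transcripts took 51.3 ± 1.15 TPM (SD, n = 4) in VEH, 43.3 ± 0.676 TPM in CJ28 and 50.6 ± 1.49 TPM in MET. The 2 effectors took 29.6 ± 1.40, 32.4 ± 1.17 and 28.4 ± 1.59 TPM in that order. The 4 BH3-only transcripts took 11.5 ± 0.605, 13.3 ± 0.815 and 13.2 ± 1.57 TPM, and in this sum MET overlapped both VEH and CJ28. The sums are of unscaled TPM. MCL1 makes up most of the first sum, and its fall was not called after either scaling. The first sum leaves out BCL2L2, a further antiapoptotic gene, which rose from 7.46 TPM in VEH to 10.2 TPM in CJ28. The effector sum leaves out BOK, which fell from 0.583 to 0.300 TPM. The BH3-only sum leaves out BAD, BIK, BMF and HRK, all with higher means in CJ28. BAD alone had 26.5 TPM in VEH and 34.0 TPM in CJ28, above the whole BH3-only sum given. The order of levels within CJ28 also differed from VEH: MCL1 and BAX stayed first, BAK1 stood above BCL2L1, TNFRSF10B overlapped BCL2L1, BBC3 stood above BCL2L11, and BCL2 was last.

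In MET against VEH, which asks whether metyrapone at the same dose and time did the same, 0 of the 10 genes passed an adjusted p of 0.05 by limma, where 0.00595% of all tested genes passed it. The smallest adjusted p among the 10 was 0.933, 1 gene had an unadjusted p under 0.05, and 0 reached the smallest p of the exact permutation test. All 10 genes overlapped between MET and VEH, where 2.81% of all tested genes did not. BBC3 had 0.94, 0.95, 0.99 and 1.14 TPM in MET, a log2 difference of 0.14 (95% interval -0.06 to 0.35; limma, adjusted p = 0.942). TNFRSF10B had 2.81, 2.88, 2.52 and 3.16 TPM, within the VEH range but for the third sample. BCL2L11 had 2.81, 3.38, 3.19 and 2.53 TPM, of which the second lay above every VEH sample and the others within the VEH range. The upper ends of the MET intervals of BBC3 and TNFRSF10B lay below the lower ends of their CJ28 intervals.

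BID was the gene with the unadjusted p under 0.05. Its MET samples had 7.95, 9.97, 9.54 and 7.39 TPM, of which samples 2 and 3 lay above every VEH sample. The log2 difference was 0.26 (95% interval 0.05 to 0.46; unadjusted p = 0.0185, adjusted p = 0.933 by limma), with an exact permutation p of 0.114. BCL2 in MET had 0.58, 0.57, 0.87 and 0.54 TPM, and the third sample stood apart from its group. MCL1 had 41.20, 41.28, 40.21 and 40.02 TPM in MET and had the narrowest interval of the 10, -0.08 to 0.04.

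CJ28 and MET were given at the same dose for the same time, so they were also compared with each other. This comparison shares its CJ28 samples with the one against VEH. By limma 9 of the 10 genes passed an adjusted p of 0.05, 4 higher and 5 lower in CJ28, where 55.5% of all tested genes passed it (20.9% higher and 34.6% lower). Under either scaling 8 passed, 5 higher and 3 lower, where 54.8% of all genes passed with median ratios (28.7% higher and 26.1% lower) and 65.7% over nuclear protein-coding genes (40.3% higher and 25.3% lower). The samples did not overlap in 9 genes, 5 higher and 4 lower, against 50.2% of all tested genes (18.9% higher and 31.3% lower). BBC3 was higher by 1.86 (adjusted p = 5.29e-09) and TNFRSF10B by 1.22 (adjusted p = 1.15e-07) on the log2 scale. BCL2L11 differed by -1.03 (adjusted p = 1.18e-04), BCL2 by -0.72 (adjusted p = 0.00509) and BCL2L1 by -0.40 (adjusted p = 4.30e-04). The BCL2 value has the same limit, since the gene passed the filter only through VEH and MET. The low members PMAIP1, with 0.49, 0.56, 0.51 and 0.54 TPM in MET, and BCL2 stood at similar levels there. For PMAIP1 the difference was 0.33 (95% interval -0.01 to 0.67; adjusted p = 0.0915), although every CJ28 sample exceeded every MET sample. It passed after the scalings, at 0.43 (adjusted p = 0.0273) and 0.50 (adjusted p = 0.00813).

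The remaining calls between CJ28 and MET were smaller. BAK1, at 7.91, 8.13, 7.79 and 7.81 TPM in MET, was higher in CJ28 by 0.18 (limma, adjusted p = 0.00375). BAX, at 19.98, 22.02, 18.68 and 21.35 TPM in MET, was higher by 0.19 (adjusted p = 0.0194), a call lost without the fourth CJ28 sample (adjusted p = 0.0591) or the third MET sample (adjusted p = 0.0620). MCL1 differed by -0.18 (adjusted p = 1.30e-04), and this call was lost after median-of-ratios scaling at -0.06 and turned to 0.01 over nuclear protein-coding genes. BID differed by -0.25 (adjusted p = 0.0355) with overlapping samples, and its call was lost after the scalings, at -0.13 (adjusted p = 0.281) and -0.07 (adjusted p = 0.548), and without any 1 of 5 libraries (CJ28 samples 1, 3 and 4 at adjusted p = 0.0747, 0.0830 and 0.0575, MET samples 2 and 3 at 0.109 and 0.101).

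The genes of other lists around apoptosis were counted in the same fit. Of 74 listed genes 63 were tested, and 39 passed in CJ28 against VEH, 15 higher and 24 lower, with a median log2 fold change of -0.14 against -0.13 over all tested genes. With median ratios 31 passed, 18 higher and 13 lower, where 55.6% of all genes passed (29.3% higher and 26.3% lower). Over nuclear protein-coding genes 31 passed, 21 higher and 10 lower, where 65.6% of all genes passed (39.3% higher and 26.3% lower). In MET against VEH 0 of the 63 passed by limma, and 5 had an unadjusted p under 0.05. In the unscaled fit 57.0% of all genes were called (19.9% higher and 37.1% lower), so the lists as a whole did not stand above the background, and the genes with the largest changes are given for 5 of the lists.

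Of the other BCL2 family genes 10 of 11 tested passed, 6 higher and 4 lower, where 57.0% of all genes passed (19.9% higher and 37.1% lower). Under the scalings 8 (6 higher and 2 lower) and 9 (6 higher and 3 lower) passed. There 55.6% (29.3% higher and 26.3% lower) and 65.6% (39.3% higher and 26.3% lower) of all genes passed. BMF, a BH3-only gene tied to loss of attachment, had 1.14 ± 0.229 TPM (SD, n = 4) in VEH and 4.18 ± 0.402 TPM in CJ28, a rise of 1.80 in log2 units (limma, adjusted p = 3.44e-07). HRK, a BH3-only gene best known from neurons, had 0.540 ± 0.12 and 1.85 ± 0.141 TPM, a rise of 1.63 (adjusted p = 1.37e-06). BAD, BIK, BCL2L13 and BCL2L2, named after their values were seen, also rose, by 0.36, 0.42, 0.52 and 0.44, the BIK samples with overlap. BCL2L2 is an antiapoptotic gene, so the antiapoptotic genes did not all fall. It had 7.46 ± 0.657 TPM in VEH and 10.2 ± 0.640 TPM in CJ28 (limma, adjusted p = 5.57e-04). BOK, a relative of BAX and BAK, fell by 0.79 from 0.583 to 0.300 TPM, having passed the filter only through VEH and MET, since 0 of its 4 CJ28 samples reached 0.5 TPM. BCL2L15 fell by 1.31, from 0.86 to 0.31 TPM, at a borderline limma adjusted p of 0.0484, a call lost after median-of-ratios scaling (adjusted p = 0.0709). Only 1 of its 4 CJ28 samples reached 0.5 TPM, and its MET samples spanned 0.16 to 1.42 TPM. BNIP3L and BNIP3, also named after their values were seen, fell without overlap. BNIP3L fell by 0.52, from 15.4 to 10.7 TPM (limma, adjusted p = 9.19e-05), and passed after either scaling at -0.37 and -0.31. BNIP3 fell by 0.18, from 34.1 to 30.2 TPM (adjusted p = 0.00699), a call lost after the scalings (adjusted p = 0.704 and 0.619).

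In the death receptor pathway around TNFRSF10B, 3 of 10 tested genes passed, 1 higher and 2 lower, where 57.0% of all genes passed (19.9% higher and 37.1% lower). Under the scalings it was 3 (2 higher and 1 lower) and 4 (3 higher and 1 lower). The shares of all genes there were 55.6% (29.3% higher and 26.3% lower) and 65.6% (39.3% higher and 26.3% lower). CASP8, the caspase that DR5 activates, rose by 0.27 on the log2 scale, from 10.4 ± 0.640 to 12.5 ± 0.372 TPM (limma, adjusted p = 0.00133). FAS, a related death receptor, fell by 0.44, from 3.79 ± 0.251 to 2.79 ± 0.294 TPM, so that the 2 receptors moved in opposite directions. RIPK1 fell by 0.35, a call lost after the scalings, at -0.20 (adjusted p = 0.0638) and -0.15 (adjusted p = 0.168). TNFRSF10A, which encodes the other TRAIL receptor with a death domain, did not pass the filter on low values.

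Of the caspases, inhibitors and apoptosome genes 8 of 15 tested passed, 2 higher and 6 lower, where 57.0% of all genes passed (19.9% higher and 37.1% lower). Under the scalings 5 passed, 2 higher and 3 lower with median ratios and 3 higher and 2 lower over nuclear protein-coding genes. Of all genes 55.6% (29.3% higher and 26.3% lower) and 65.6% (39.3% higher and 26.3% lower) passed there. BIRC5, which encodes survivin and is made in dividing cells, had 33.7 ± 0.736 TPM in VEH and 14.1 ± 0.330 TPM in CJ28, a log2 difference of -1.25 (limma, adjusted p = 1.49e-10). CASP2 had 14.7 ± 1.15 and 7.70 ± 0.356 TPM, a log2 difference of -0.93. XIAP, the inhibitor of the executioner caspases, rose by 0.47, and CASP9, the caspase of the apoptosome, fell by 0.44, a call lost over nuclear protein-coding genes (adjusted p = 0.0678). Of 4 genes of MCL1 turnover 3 passed, all lower, where 57.0% of all genes passed (37.1% lower). These were BTRC (by 0.34), HUWE1 (by 0.32) and FBXW7 (by 0.15). After the scalings 2 and 0 of the 4 passed, where 55.6% and 65.6% of all genes passed, and FBXW7 stood at 0.0015 and 0.05.

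Of 7 other transcription regulators of these genes 4 passed, 3 higher and 1 lower, where 57.0% of all genes passed (19.9% higher and 37.1% lower). Under the scalings 4 (3 higher and 1 lower) and 5 (4 higher and 1 lower) passed. The shares of all genes were then 55.6% (29.3% higher and 26.3% lower) and 65.6% (39.3% higher and 26.3% lower). DDIT3, which encodes CHOP and is known to act on TNFRSF10B and BBC3 under stress of the endoplasmic reticulum, went from 16.8 ± 0.316 TPM in VEH to 155 ± 8.29 TPM in CJ28 and stood at 18.0 ± 0.643 TPM in MET. Its log2 fold change in CJ28 was 3.20 (limma, adjusted p = 6.49e-14). ATF3 rose by 1.71 and ATF4, the factor upstream of DDIT3 in the integrated stress response, by 0.26. E2F1 fell by 0.46.

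**Figure D4:**
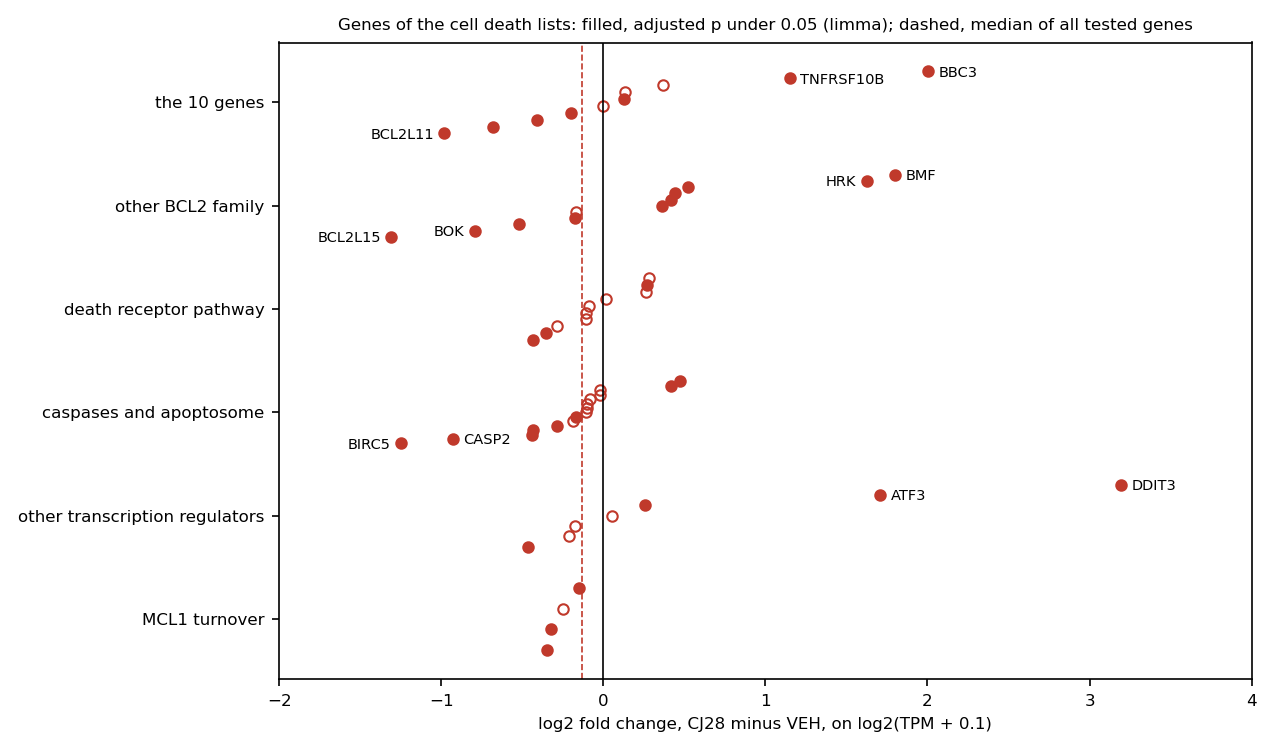
Log2 fold change of CJ28 against VEH (horizontal axis, on log2(TPM + 0.1)) for the tested genes of each list shown, 1 point per gene, filled where the limma adjusted p was under 0.05; the dashed line is the median of all tested genes, -0.13. BBC3, TNFRSF10B, BMF, HRK, ATF3 and DDIT3 lie to the right of 1, while BIRC5 at -1.25 and BCL2L15 at -1.31 lie to the left of -1.

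The genes whose pattern over the 12 samples was most like that of BBC3 were CHAC1 (Pearson r 0.997 on log2(TPM + 0.1)), FTL (0.997) and GTPBP2 (0.996), among 13305 genes with a mean of at least 1 TPM. CHAC1, which degrades glutathione, had means of 3.24 TPM in VEH, 12.3 TPM in CJ28 and 3.36 TPM in MET. FTL, the light chain of ferritin, had 330 TPM in VEH, 619 TPM in CJ28 and 336 TPM in MET. For BCL2L11 the nearest genes were FAM72D (0.973), one of several near-identical copies and therefore uncertain, RNF34 (0.971) and AL035461.3 (0.970). RNF34 had means of 17.1 TPM in VEH, 13.8 TPM in CJ28 and 17.1 TPM in MET. The 12 points of each r share their groups, so a gene that differed only in CJ28 comes out alike.

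The RefSeq promoter windows (GRCh38.p14, 250 bases before to 50 after each start) were searched on both strands for motifs of factors known to act on apoptosis genes, and 8 of the 10 genes had at least 1 window, while MCL1 and TNFRSF10B had no entry and were not searched. The ATF4 composite element TGATGNAA was in 3.62% of all 35116 windows and the cAMP response element TGACGTCA in 1.85%, and neither was in a window of the 8 genes. The E-box CACGTG, in 7.26% of all windows, was found in those of BAX, BBC3 and BID. The FOXO motif GTAAACA, in 3.42%, was found for BCL2L11. These shares are per window, and the 8 genes had 13 windows, of which BID had 5. A count of genes therefore cannot be set against them. The matches are printed for the gene that rose most, the gene that fell most and the effector BAX, with the motif in capitals, written 5′ to 3′ on the strand of the gene.
BBC3 E-box, chr19:47232886-47232907, minus strand, 232 bases before the start: ggagatttCACGTGagatatag
BAX E-box, chr19:48954729-48954750, plus strand, 138 bases before the start: tggacagtCACGTGacgggacc
BAX E-box, chr19:48954774-48954795, plus strand, 93 bases before the start: ggtgcggtCACGTGacccggcg
BAX E-box, chr19:48954822-48954843, plus strand, 45 bases before the start: ggggcggcCACGTGaaggacgc
BAX E-box, chr19:48954853-48954874, plus strand, 14 bases before the start: ggggctctCACGTGacccgggc
BCL2L11 FOXO motif, chr2:111120683-111120705, plus strand, 223 bases before the start: ttactccgGTAAACAcgccaggg
BAX carried 4 copies of the E-box within its window and BBC3 carried 1. The starts are those of RefSeq. The BCL2L11 match and the BAX matches 45 and 14 bases before the start lie inside the gene coordinates given earlier. All are matches of letters in a fixed window, and binding was not measured.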

How the data were processed

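The 12 NCI-H295R RNA-seq samples were grouped by their labels, with 4 samples in each of the VEH, CJ28 and MET groups. The authors deposited TPM values with 2 decimals, made with Cutadapt (version 2.8), STAR (version 2.7.10b) on GRCh38 and RSEM (version 1.3.3), per the submitters' processing notes. The annotation release and the strand setting of the counting are not given in the sources used here. TPM keeps no depth, and although the study lists input reads per sample, reads per gene cannot be had from TPM, so no counting interval is given. The libraries were stranded. The study tested counts with DESeq2, and counts were not used here.

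Values were fitted as log2(TPM + 0.1) with limma (version 3.58.1, R version 4.3.3; eBayes with trend), all 12 samples in one fit without covariates, with two-sided p-values adjusted by the Benjamini-Hochberg method over the 16815 genes tested. A fold change on this scale understates the change of low genes, and ratios of means are of TPM itself. Single genes were also compared by an exact two-sided permutation test of mean TPM. The median-of-ratios scaling divides each sample by its median ratio to the geometric mean of each gene, and the coding scaling recomputes TPM over nuclear protein-coding genes. On simulated CJ28 against VEH data for 16815 genes the fit called 163 of 200 genes changed by 1 on the log2 scale, with 9 false calls. The simulation had independent noise, equal numbers of rises and falls and no shift of the other genes. In the data 57.0% of genes were called and the median was shifted, so these figures do not carry over to them. Overlapping genes were found from the gene coordinates deposited with the TPM values. Python (version 3.11.15), numpy (version 2.4.6), pandas (version 2.3.3) and matplotlib (version 3.10.9) were used.

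The counts over all lists include 1 list whose genes are not reported here, and 1 of the 5 motifs searched is likewise left out. The 10 genes and all lists were chosen with earlier results of these data known. Named besides the 10 were up to 4 genes per list with the largest absolute log2 fold change among those past the threshold in CJ28 against VEH, listed genes near 0, and the 3 genes most correlated with the largest rise and the largest fall. BAD, BIK, BCL2L2, BCL2L13, BNIP3 and BNIP3L were named after their values were seen. Alternatives were other pseudocounts, filters and scalings, a fit of the 2 groups alone, a replicate block, a fit without trend, and leaving out each sample. The exact permutation test under the scalings was added after seeing the data.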

Additional observations from a re-analysis of the deposited data

Results flagged for a closer look

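In 30 groups of 4 samples (10 genes in 3 groups) the highest and the lowest sample were compared with the rest, and 3 groups held a sample far from the others by Dixon's criterion, which chance meets in about 1 group in 20. BCL2 stood at 0.87 TPM in MET sample 3, with the other MET samples between 0.54 and 0.58 TPM. BAK1 stood at 7.81 TPM in VEH sample 1, with the others between 8.30 and 8.38 TPM, and its log2 fold change in CJ28 was 0.11 without that sample (limma, adjusted p = 0.0702). PMAIP1 stood at 0.38 TPM in VEH sample 1, with the others between 0.55 and 0.57 TPM.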

How the results depend on the processing

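Under the 9 alternative settings the number of the 10 genes called was 6 to 8 in CJ28 against VEH, 0 in MET against VEH and 8 to 10 in CJ28 against MET, and without 1 sample it was 6 to 7, 0 and 7 to 9. In the unscaled fit 57.0% of all tested genes were called in CJ28 against VEH, 0.00595% in MET against VEH and 55.5% in CJ28 against MET. The share of all genes was otherwise counted only for the scalings, so these counts do not set the 10 genes apart. BBC3, TNFRSF10B, BCL2L11, BCL2L1 and BCL2 kept their calls in CJ28 against VEH under all alternatives in which they were tested. BCL2 had passed the main filter only through VEH and MET. MCL1 in CJ28 against VEH turned to 0.0026 over nuclear protein-coding genes and in CJ28 against MET to 0.011, and uncalled MET differences turned to 0.026 and 0.0096 for BCL2L1 and to 0.0082 for MCL1 (median-of-ratios) under the scalings. Fitted on 2 groups alone, BAK1 lost its call in CJ28 against VEH (adjusted p = 0.0536). PMAIP1 gained one with a pseudocount of 1 (0.16, adjusted p = 0.0465) and without trend (adjusted p = 0.0128). With a pseudocount of 1 the change of the ratios in CJ28 against VEH was 0.39 for BAX to BCL2, 0.36 for PMAIP1 to MCL1 and -0.31 for BCL2L11 to BCL2L1, since 1 TPM exceeds the lower gene's level in the first 2. Leaving out 1 sample turned the sign only of uncalled differences: in MET against VEH, BCL2 (-0.10 to 0.10), BCL2L1 (-0.06 to 0.051), PMAIP1 (-0.072 to 0.088) and BCL2L11 (-0.017 to 0.12), in CJ28 against VEH, BID (-0.040 to 0.045), and of the MET against VEH ratios, BAX to BCL2 (-0.20 to 0.08), PMAIP1 to MCL1 (-0.041 to 0.105) and BCL2L11 to BCL2L1 (-0.013 to 0.135). The labels do not say whether equal replicate numbers share a culture or day, and the samples were treated as unpaired. The deviations of same-numbered samples correlated at 0.0040 to 0.0394 for CJ28 and VEH, -0.063 to 0.021 for MET and VEH and -0.124 to -0.0077 for CJ28 and MET. Those of unlike-numbered samples correlated at -0.090 to 0.060, -0.097 to 0.103 and -0.052 to 0.098 in that order. Such correlations cannot tell whether cultures or days were shared. With a replicate block 7, 0 and 9 of the 10 genes and 39 and 0 genes of the other lists were called.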
